A study of Mus musculus with 4 samples.

Results

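The genes of the opioid peptide precursors and of the opioid receptors were followed in the hypothalamus of ΔFosB mice. They were taken by gene symbol as the probe sets named Pdyn, Penk (Penk1 in the deposited sheet), Pnoc, Oprk1, Oprm1, Oprd1 or Oprl1. This gave 7 probe sets of 35474 on the array, 1 for each of 3 peptide precursor genes and 4 receptor genes. Total RNA of hypothalami from male mice aged 12 weeks had been hybridised to 4 Affymetrix arrays. The control group held 2 arrays of wild-type mice, titled Control A and Control B. The ΔFosB group held 2 arrays, titled DFosB A and DFosB B, of mice whose genotype is spelled ENOI2DeltaFosB for the samples and ENO2DeltaFosB in the title of the study. All mice were recorded as untreated. ΔFosB is the short, long-lived splice product of the Fosb gene and binds DNA at AP-1 sites. ENO2 names neuron-specific enolase. The labels used here name no strain, no promoter and no number of animals per array. Since nothing states that the arrays came from separate animals, the p-values below rest on the spread among these 4 samples alone, and that spread may be technical.

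Opioid peptides are cut from large precursor proteins in secretory vesicles and act on receptors coupled to inhibitory G proteins, which lower cyclic AMP, open potassium channels and close calcium channels. Prodynorphin yields the dynorphins, which prefer the kappa receptor (Oprk1). Proenkephalin yields the enkephalins, which act on the delta (Oprd1) and mu (Oprm1) receptors, and pronociceptin yields nociceptin, the ligand of the nociceptin receptor (Oprl1). In the hypothalamus dynorphin is made by vasopressin, orexin and kisspeptin neurons among others. The comparison asked whether genes of this system differ between the genotypes, and prodynorphin has been reported as a target of ΔFosB in other brain regions.

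The 4 arrays were deposited at similar overall brightness, with median probe set signals between 917.52 and 976. Limma's moderated test was run on the log2 signals of 14520 genes with Benjamini-Hochberg adjustment, and "rose" or "fell" marks an adjusted p under 0.05. Of all tested genes 6.18% rose and 6.91% fell on the ΔFosB arrays, 898 against 1004 genes. After each array was centred on its median signal the split was 490 against 1584. Fosb had signals of 1377 and 1220 on the control arrays and of 1579 and 2189 on the ΔFosB arrays (log2 fold change 0.52, SE 0.13, limma adjusted p = 0.0389). Omitting control A, control B or ΔFosB B ended that call, with adjusted p-values of 0.0853, 0.147 and 0.0684, as did median centring (0.0667), quantile normalization (0.0616), no filter (0.0511) and robust estimation (0.123). Which part of Fosb this probe set covers was not analysed here, and so the signal is an uncertain check of the genotype. Of 16 marker genes of the hypothalamus, all had a probe set and 9 exceeded on every array a signal of 834, the 95th percentile of 1230 probe sets of olfactory and vomeronasal receptor genes. That percentile serves as the level of background below.

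Every opioid gene had both ΔFosB arrays above both control arrays, a pattern shown by 34.7% of all tested genes. Of the 7 genes 6 rose, against 6.18% of all tested genes, and 0 fell, while Oprl1 did not pass the threshold. Prodynorphin increased most, at least 1.82-fold against the background level, within which its control signals lay (2.74-fold as measured). The kappa receptor gene followed with 1.32-fold, and the increases of Penk, Pnoc, Oprm1 and Oprd1 lay between 1.17-fold and 1.20-fold. The median log2 fold change was 0.25 over the 7 opioid genes and 0.02 over all genes tested. Only Pdyn and Oprk1 also rose when each array was centred on its median, which lowered every log2 fold change by 0.06. There 2 of 7 opioid genes rose, against 3.37% of all genes. With any 1 array omitted fewer opioid genes rose, and fewer of all tested genes rose as well. In proportion the fall was larger among the opioid genes without control B, ΔFosB A or ΔFosB B, and similar without control A. The cause of this was not tested. In these fits the log2 fold changes of the 6 genes other than Pdyn lay between 0.18 and 0.48, and that of Pdyn stayed the largest. With 2 arrays per group the precision is limited, and the standard errors of the 7 log2 fold changes ran from 0.054 to 0.076.

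**Figure D1:**
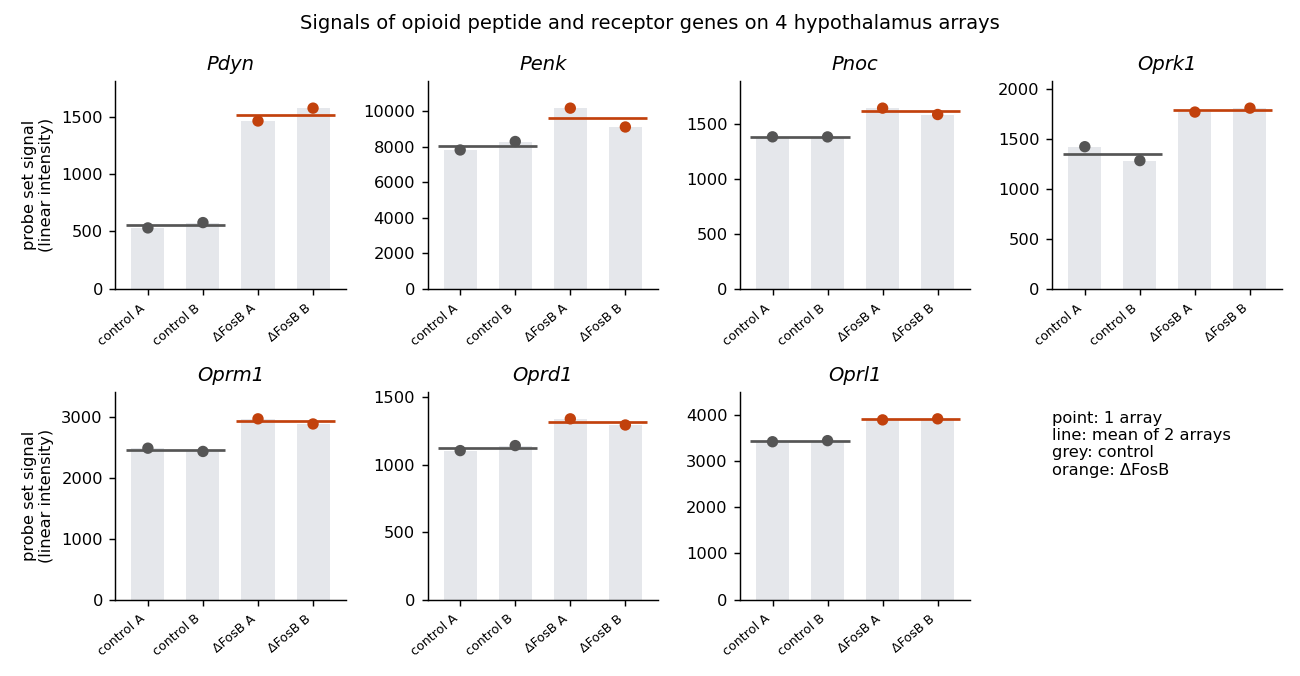
Signals of the 7 opioid genes on each array (vertical axis, linear intensity from 0). Points are single arrays, control in grey and ΔFosB in orange, and lines are the means of the 2 arrays of a group. In each panel both orange points lie above both grey points, and in the panel of Pdyn the lines lie farthest apart in proportion, at 554 and 1520.

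Prodynorphin (Pdyn, gene identifier 18610, probe set 10487613) had signals of 531 and 577 on the control arrays and of 1464 and 1576 on the ΔFosB arrays. Both ΔFosB signals were far above both control signals, and the arrays of a group differed little from each other. Group means were 554 ± 32.8 and 1520 ± 79.3 (SD, n = 2), and Pdyn rose by 1.46 on the log2 scale (SE 0.08, 95% interval 1.28 to 1.63, limma adjusted p = 3.19e-05). The control signals lay below the background level of 834, so that the measured fold and its interval are uncertain, and the fold against that level was at least 1.82. They also lay below the signal of 717 that served as the filter on the mean of all arrays, so Pdyn entered the test through its ΔFosB arrays. Fitted without any filter it had an adjusted p of 5.67e-05. The bulk tissue does not tell apart more dynorphin-producing cells from more transcript per cell, and this holds for all genes described here.

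The promoter of Pdyn is shown because FosB acts through AP-1 sites and Pdyn is the member that differed most. RefSeq (GRCm38.p6) gave 9 promoter windows for 4 of the 7 genes (Pdyn, Oprm1, Oprd1, Oprl1), each from 250 bases before to 50 bases after a transcript start. The window of the upstream Pdyn start lies at chr2:129699889-129700188 on the minus strand. Capitals mark a match to TGACAAACA, a noncanonical AP-1 element described for the rat prodynorphin gene. This motif was chosen after the sequence was seen.

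Pdyn promoter: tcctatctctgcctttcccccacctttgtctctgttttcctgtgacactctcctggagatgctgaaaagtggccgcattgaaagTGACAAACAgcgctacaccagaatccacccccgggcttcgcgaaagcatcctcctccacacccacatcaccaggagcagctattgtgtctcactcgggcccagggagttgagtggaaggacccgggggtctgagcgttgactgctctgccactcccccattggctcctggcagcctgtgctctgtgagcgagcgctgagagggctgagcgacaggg

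The match spans bases 166 to 158 upstream of the start. TGACAAACA occurred, on either strand, in 110 of 32851 promoter windows (0.335%), and in 1 of the 9 windows of opioid genes. The canonical AP-1 motif TGANTCA occurred in 7.81% of all windows and the cyclic AMP response element TGACGTCA in 1.79%, each in 0 of the 9. Both strands were searched for each motif, and with 1 match in the 9 windows no motif overlapped another. A second Pdyn window, at chr2:129698609-129698908 on the minus strand, held none of the 3 motifs. Letters in a window do not show binding, which these arrays did not measure.

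The kappa receptor gene Oprk1 (gene identifier 18387, probe set 10344653), whose product binds dynorphins, had signals of 1425 and 1285 on the control arrays and of 1772 and 1811 on the ΔFosB arrays. The gap between the groups was wider than the difference between the control arrays. Means were 1355 ± 98.5 and 1792 ± 27.9, a log2 fold change of 0.40 (SE 0.07, 95% interval 0.25 to 0.56, adjusted p = 0.00732). An increase at least as large was shown by 1.52% of all tested genes. Oprk1 kept its call without each of the 4 arrays in turn, with adjusted p-values from 0.00770 to 0.0475, the highest without control B.

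Proenkephalin (Penk, gene identifier 18619, probe set 10511363) had signals of 7815 and 8292 on the control arrays and of 10171 and 9110 on the ΔFosB arrays. The groups did not overlap, but the ΔFosB arrays differed from each other by 0.16 on the log2 scale, the widest gap within a group among the opioid genes. Means were 8053 ± 337 and 9640 ± 750, and Penk rose by 0.26 (SE 0.06, 95% interval 0.12 to 0.40, adjusted p = 0.0278). With control A omitted the adjusted p was 0.165, and with ΔFosB A omitted it was 0.0953 with a log2 fold change of 0.18.

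Oprm1 (gene identifier 18390, probe set 10367546) encodes the mu receptor, through which morphine acts. It gave signals of 2492 and 2439 in control and of 2976 and 2892 in ΔFosB hypothalamus. Within each group the arrays lay close together, and the groups were clearly apart. Means were 2466 ± 38.0 and 2934 ± 59.8, and Oprm1 rose by 0.25 (SE 0.06, 95% interval 0.12 to 0.38, adjusted p = 0.0251). Omitting any 1 array ended the call, with adjusted p = 0.101 for control A, 0.0990 for control B, 0.0825 for ΔFosB A and 0.0514 for ΔFosB B.

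Oprd1 (gene identifier 18386, probe set 10516852) encodes the delta receptor, the main receptor of enkephalins. It had signals of 1104 and 1141 on the control arrays and of 1339 and 1293 on the ΔFosB arrays, again without overlap. With means of 1122 ± 26.2 and 1316 ± 32.3, Oprd1 rose by 0.23 (SE 0.06, 95% interval 0.08 to 0.38, adjusted p = 0.0482). This lies close to the threshold, and leaving out any 1 array ended the call, with adjusted p = 0.239 without control A, 0.110 without control B, 0.135 without ΔFosB A and 0.0728 without ΔFosB B.

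Pronociceptin (Pnoc, gene identifier 18155, probe set 10420853) had signals of 1379.7 and 1379.1 on the control arrays and of 1640.3 and 1582 on the ΔFosB arrays. The control arrays were nearly identical. Means were 1379.4 ± 0.481 and 1611 ± 41.0, and Pnoc rose by 0.22 (SE 0.06, 95% interval 0.08 to 0.36, adjusted p = 0.0457). Leaving out any 1 array ended that call too, with adjusted p = 0.197 without control A, 0.143 without control B, 0.131 without ΔFosB A and 0.0668 without ΔFosB B.

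The nociceptin receptor gene Oprl1 (gene identifier 18389, probe set 10479685) had signals of 3426 and 3450 on the control arrays and of 3900.5 and 3923 on the ΔFosB arrays. Its arrays agreed within each group more closely than those of any other receptor gene here. Means were 3438 ± 16.8 and 3912 ± 16.1, a log2 fold change of 0.19 (SE 0.05, 95% interval 0.06 to 0.31) that missed the threshold with an adjusted p of 0.0538. An increase at least as large was shown by 12.5% of all tested genes. With quantile normalization or robust variance estimation it passed (adjusted p = 0.0406 and 0.0477).

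**Figure D2:**
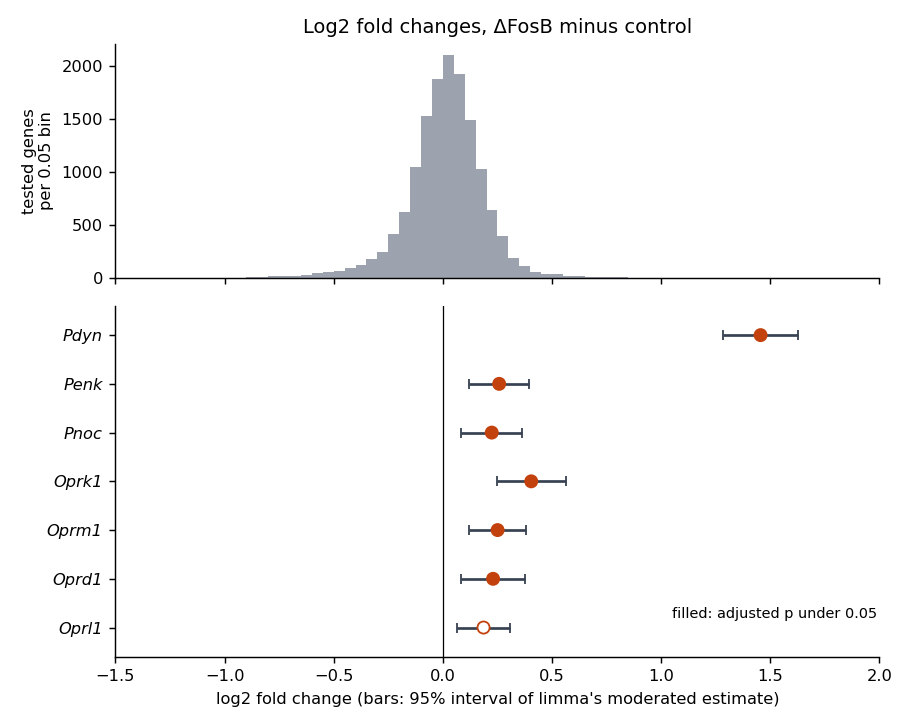
Top, the number of tested genes per bin of log2 fold change (ΔFosB minus control). Bottom, the log2 fold changes of the 7 opioid genes on the same axis with 95% intervals of limma's moderated estimate, filled where the adjusted p was under 0.05. Pdyn lies at 1.46 as measured, with control signals below the background level, and the other 6 between 0.19 and 0.40, in the right flank of the distribution.

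The opioid genes other than Pdyn had a median log2 fold change of 0.24. On the log2 scale Pdyn increased by 1.05 more than Oprk1 as measured, and by 1.20 to 1.27 more than the other 5. With the control signals of Pdyn set to the background level, it increased by at least 0.46 more than Oprk1 and by at least 0.61 to 0.68 more than the other 5. In each of these 6 comparisons the signed log2 difference within an array (Pdyn minus the other gene) was higher on both ΔFosB arrays than on both control arrays. This order follows from Pdyn itself, whose groups lay 1.34 apart as measured, more than the log2 fold change of any other opioid gene. Pdyn was also singled out as the largest in these same data. The 6 comparisons share its signals and are not separate results. The exact two-sided permutation p was 0.333 for each of them, also after adjustment, which is the smallest that 2 against 2 arrays allow.

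The pattern of Pdyn over the 4 arrays was most closely matched by Gda, Sytl4, Ecel1, Dlx1 and Gabre. Likeness was measured as the Euclidean distance of log2 signals, each gene centred on its mean of the 4 arrays. The distance was 0.17 for Gda, which encodes guanine deaminase, and 0.20 for Sytl4, which encodes the vesicle protein granuphilin. It was 0.32 for Ecel1, a membrane peptidase of the neprilysin family, 0.35 for the homeobox factor Dlx1 and 0.37 for Gabre, the epsilon subunit of the GABA-A receptor. Gda had signals of 1140.0 and 1108 on the control arrays and of 3216 and 3077 on the ΔFosB arrays. The control signals of Sytl4 (645 and 659), like those of Pdyn, lay below the background level, so all 5 distances rest in part on signals not above background and their order is uncertain. Over 4 arrays such a match reflects mainly the size of the difference between the groups.

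**Figure D3:**
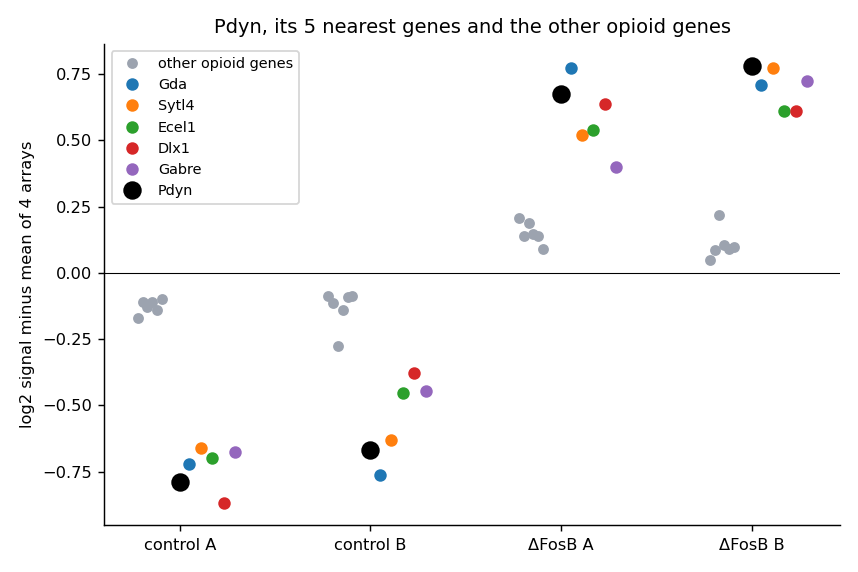
Log2 signal minus the gene's mean of the 4 arrays (vertical axis) on each array, for Pdyn (large black points), the 5 genes nearest to it (colours) and the other 6 opioid genes (grey). Pdyn and its nearest genes lie below 0 on the control arrays and above 0 on the ΔFosB arrays, and the grey points show the same order closer to 0.

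Genes of the machinery that cuts and packs opioid precursors showed no common direction between the genotypes. Of 12 genes of precursor processing tested, 0 rose, 1 fell and 11 did not pass, with a median log2 fold change of 0.01 against 0.02 over all genes. Cpd, a carboxypeptidase gene, fell by 0.19 (SE 0.05, adjusted p = 0.0467). Pcsk1, which encodes a prohormone convertase, differed by 0.08 on the log2 scale (SE 0.06, adjusted p = 0.389) and Pam, whose product amidates peptides, of 0.13 (SE 0.05, adjusted p = 0.121). Cpe, the carboxypeptidase that trims enkephalin and dynorphin precursors, showed a difference of -0.17 (SE 0.06, adjusted p = 0.0985). The call of Cpd did not survive the loss of any array, with adjusted p = 0.163 without control A, 0.147 without control B, 0.172 without ΔFosB A and 0.0756 without ΔFosB B.

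Of 10 tested genes of opioid peptide breakdown, 1 rose, 2 fell and 7 did not pass, with a median of -0.05. The clearest was Mme, which encodes neprilysin, the membrane peptidase known as enkephalinase. Mme had signals of 1798 and 1711 on the control arrays and of 1124 and 991 on the ΔFosB arrays, which is lower on both. It fell by 0.73 (SE 0.08, adjusted p = 0.000659) and kept its call without each single array, with adjusted p-values up to 0.00783. Prep, a prolyl peptidase gene, fell by 0.25 (SE 0.07, adjusted p = 0.0469) and Ece2, an endothelin-converting enzyme gene, rose by 0.22 (SE 0.06, adjusted p = 0.0464). For Prep and Ece2 the adjusted p was 0.264 and 0.239 with control A omitted, 0.0628 and 0.0716 with control B omitted, 0.178 and 0.187 with ΔFosB B omitted, and 0.0552 and 0.0519 with no filter. For Ece2 it was 0.114 with median centring, and for Prep 0.0716 with quantile normalization. Thop1, which encodes thimet oligopeptidase, showed a difference of 0.23 (SE 0.07, adjusted p = 0.0605).

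Among 28 tested genes of opioid receptor signalling, 3 rose and 2 fell, and 23 missed the threshold, with a median of -0.01. After median centring 2 rose and 5 fell, and with single arrays omitted 1 to 3 rose and 1 to 4 fell, the extremes being 1 and 1 for control A and 3 and 4 for ΔFosB A. Rgs9, a regulator that shortens G protein signals, rose by 0.46 (SE 0.06, adjusted p = 0.00274), and Cacna1b, the pore subunit of the N-type calcium channel, rose by 0.27 (SE 0.05, adjusted p = 0.0136). With control A omitted Cacna1b had an adjusted p of 0.0956. Wls, whose product carries Wnt proteins and binds the mu receptor, fell by 0.42 (SE 0.07, adjusted p = 0.00796). Adcy1, an adenylyl cyclase gene, fell by 0.46 (SE 0.12, adjusted p = 0.0396), and missed the threshold with control A (0.212) or ΔFosB B (0.0947) omitted, with quantile normalization (0.0562), with no filter (0.0509) and with robust estimation (0.0893).

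Genes known from hypothalamic dynorphin neurons were mostly higher. Of 9 tested, 5 rose, 1 fell and 3 did not pass, with a median log2 fold change of 0.57. The list of hypothalamic markers, which also holds Avp and Hcrt, had a median of 0.60, so the increase was not particular to dynorphin neuron genes. Avp, the vasopressin gene, had signals of 946 and 1483 on the control arrays and of 5181 and 6063 on the ΔFosB arrays, and rose by 2.24 (SE 0.17, adjusted p = 0.000210). Esr1, the estrogen receptor gene of kisspeptin and dynorphin neurons, rose by 0.71 (SE 0.08, adjusted p = 0.00116). Tacr3, the neurokinin B receptor gene, was level (log2 difference 0.00, SE 0.06, adjusted p = 0.984). Slc17a6, a vesicular glutamate transporter gene also expressed in thalamus, fell by 0.34 (SE 0.07, adjusted p = 0.0127), which did not hold without control A (0.0702). Hcrt, the orexin gene, was picked out after its values were seen. Its control signals of 2557 and 7256 differed widely, while the ΔFosB arrays gave 9467 and 9525 (log2 fold change 1.14, adjusted p = 0.0745). With control A omitted the change was 0.39 (adjusted p = 0.00869), and with control B omitted 1.89 (adjusted p = 4.17e-06). Of the hypothalamic markers, 10 of 15 tested rose, 0 fell and 5 did not pass, led by Oxt and Trh, which encode oxytocin and thyrotropin-releasing hormone. Oxt rose by 3.02 (SE 0.08, adjusted p = 5.77e-07). Pomc, the precursor gene of beta-endorphin, had control signals of 804 and 811, within the background level, against 1588 and 1606 on the ΔFosB arrays. It was at least 1.91-fold higher (adjusted p = 8.12e-05).

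Markers of other cell types and of neighbouring tissue also differed between the groups, and their part in the results on opioid genes was not tested. Myelin markers fell in 15 of 15 tested genes, with summed signals of 126363 to 130527 on the control arrays and 89131 to 94860.02 on the ΔFosB arrays and a median log2 fold change of -0.55. Markers of midbrain dopamine neurons fell in 7 of 10, with 0 higher, a median of -1.30 and summed signals of 42903 to 51360 against 16643 to 17284. Thalamic markers had a median of -0.46, with 1 of 10 lower, 0 higher and summed signals of 33018 to 44311 against 22806 to 33458. That count was 8 without ΔFosB A, 3 without control B, 1 without ΔFosB B and 0 without control A, and the median was -0.79, -0.66, -0.15 and -0.25 in the same order.

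The striatum is rich in enkephalin and dynorphin neurons, and its markers showed no common direction, with 2 of 13 higher, 5 lower and a median of 0.00. The summed signals of all 14 striatal markers with a probe set were 27898 to 28499 on the control arrays and 27976 to 28026 on the ΔFosB arrays. Drd2, the dopamine receptor gene of enkephalin neurons there, fell by 0.31 (SE 0.06, adjusted p = 0.0136, but 0.103 without control A and 0.0535 without ΔFosB B). The count of lower striatal genes was 1 without control A or without control B, and 2 without ΔFosB B. Of 8 tested markers of cortex and hippocampus, where granule cells make dynorphin, 4 rose and 0 fell, with a median of 0.26. All 12 with a probe set had summed signals of 19382 to 20809 against 23621 to 24448. C1ql2, a marker of dentate granule cells, rose by 0.45 (SE 0.07, adjusted p = 0.00355), while their marker Prox1 differed by -0.09 (SE 0.06, adjusted p = 0.361). Slc17a7, the cortical vesicular glutamate transporter gene, varied widely, with signals of 2596 and 1009 against 1206 and 344, the last below the background level (adjusted p = 0.142, and 0.00134 with ΔFosB A omitted). Of 9 pituitary markers 3 were tested, and Pomc was the 1 that rose. Summed signals of all 9 were 4963 to 5406 against 6895 to 7420. Of the 9, 5 lay within the background level on every array. No marker of any list was listed at 0. Avp, Hcrt, Slc17a6, Rgs9 and Pomc each stand in more than 1 list.

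**Figure D4:**
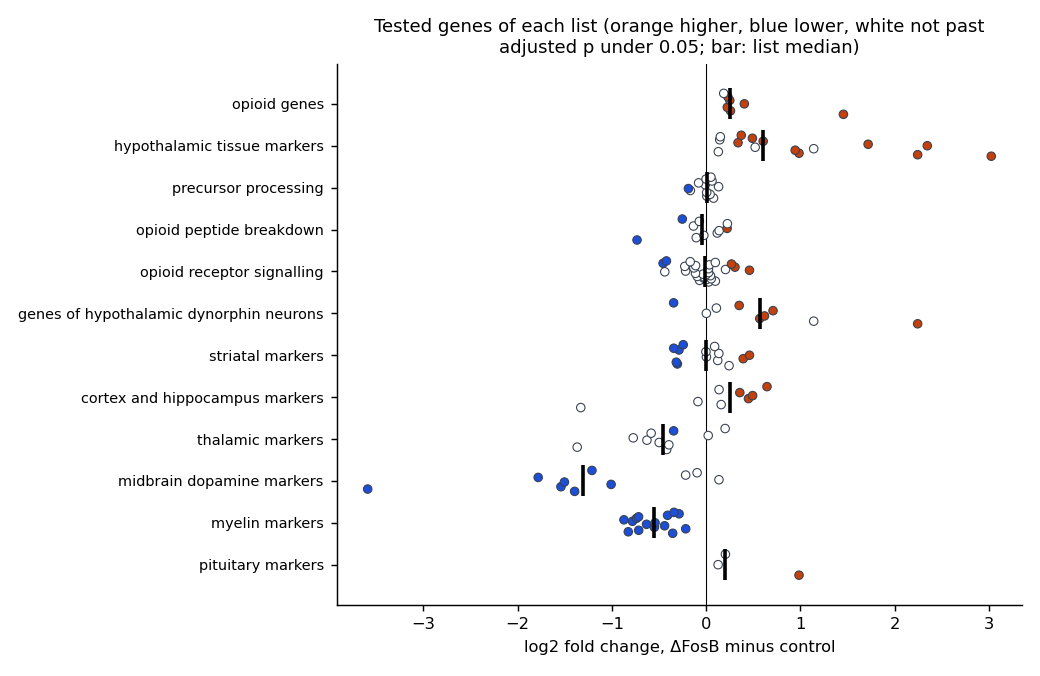
Log2 fold changes (horizontal axis, ΔFosB minus control) of the tested genes of each list. Points are genes, orange where they rose, blue where they fell and white where the adjusted p was 0.05 or more, and black bars are list medians. The opioid genes all lie above 0 with a median of 0.25, while the precursor processing, peptide breakdown and receptor signalling lists are centred near 0.

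The increases differed in how they held when the processing was varied. Over the other settings tried, the log2 fold change of Pdyn ran from 1.36 to 1.52 and that of Oprk1 from 0.33 to 0.48. Pdyn passed the threshold in 15 of 16 settings and Oprk1 in 16 of 17, the exception for both being a test without shared variance, in which 0 of all 14520 genes passed (2690 at an unadjusted p under 0.05, among them 6 of the 7 opioid genes). Penk passed in 12 of 17, Oprm1 in 11 of 17, Pnoc in 6 of 17, Oprd1 in 5 of 16 and Oprl1 in 3 of 17. With an adjustment to the median of each array, the log2 fold changes of Penk, Oprm1, Oprd1, Pnoc and Oprl1 were 0.20, 0.19, 0.17, 0.16 and 0.13, with adjusted p-values of 0.0593, 0.0734, 0.106, 0.118 and 0.168. No opioid gene changed sign, but most settings could not have brought that about. Filters, variance models, probe set summaries and the block left each log2 fold change as it was. Omitting an array or adding a pseudocount cannot reverse a gene whose ΔFosB arrays both lie above both control arrays. Only quantile normalization and median centring could have done so.

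**Figure D5:**
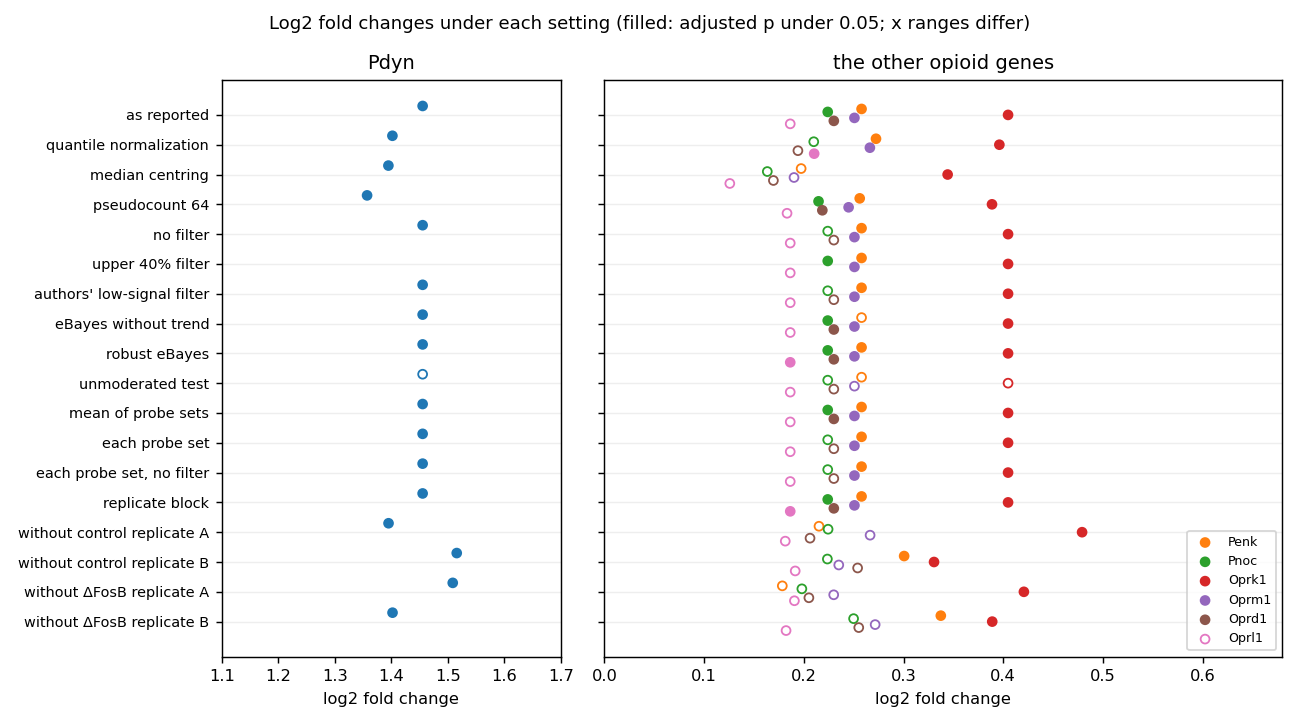
Log2 fold changes of Pdyn (left) and of the other 6 opioid genes (right, with another range on the horizontal axis) under each processing setting (rows). Filled points passed an adjusted p of 0.05. Pdyn and Oprk1 are filled in each row in which they were tested but that of the unmoderated test, and Oprl1 is mostly open.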

How the data were processed

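Hypothalamic RNA was extracted with Trizol and made into biotinylated cRNA, per the labels' protocols. The authors deposited intensities per probe set on a linear scale. The submitters' processing notes name MAS5 but no version. For the scaling target, annotation release and genome build, the entry is "not given in the sources used here". The authors' sheet and the series' value table agreed exactly over 35474 probe sets (largest difference 0). The authors' 16 ratio columns were not used.

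Log2 intensities were taken without a pseudocount or further normalization. Of 25175 named probe sets, 23015 had 1 gene identifier, of which 21637 were matched to a RefSeq table (GRCm38.p6) for current symbols. A filter kept the brightest 60% by mean log2 signal (717 or more), which removed 92.3% of the olfactory and vomeronasal receptor probe sets. The brightest probe set stood for a gene. "At least" folds replace each signal under 834 by that value. Limma (lmFit, eBayes with trend) compared ΔFosB with control without a block over 14520 genes, at an adjusted p of 0.05. Precision is limited by having 4 arrays. The procedure was also run on simulated data with independent noise. Such data hold no effect shared by the genes of an array, and no result here rests on them. Other settings were normalization, pseudocount, filter, variance model, summary of probe sets, replicate block and leaving out each array. With 1 array left in a group, that array is assumed to vary like the others.

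The genes and lists were chosen with earlier results of these data known. Named were all opioid genes, up to 2 genes of highest and 2 of lowest statistic from each list (some left out here for length), the 5 genes nearest to Pdyn, and Fosb. Hcrt was named beyond that rule. Fits used limma 3.58.1 under R 4.3.3. Tables used pandas 2.3.3 with numpy 2.4.6 in Python 3.11.15, and plots matplotlib 3.10.9.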

Additional observations from a re-analysis of the deposited data

How the results depend on the processing

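Of the 7 opioid genes, 6 passed as reported, 2 with median centring and 0 in an unmoderated test (6 at an unadjusted p under 0.05). With no filter, with the authors' low-signal filter, and with each probe set as a feature, filtered or not, 4 passed. With quantile normalization or without the variance trend 5 passed, and with robust estimation 7. Leaving out each array in turn lowered the count of 6, and the count over all tested genes fell as well. The opioid count fell by the larger proportion without control B, ΔFosB A or ΔFosB B, and by a similar one without control A. Over all tested genes 13.1% passed, and among the 3 lists of precursor processing, peptide breakdown and receptor signalling 9 of 50 did. This was 4 with no filter, 5 with each probe set as a feature, 4 with each probe set and no filter, 0 in the unmoderated test (9 at an unadjusted p under 0.05), and 4 to 10 when each array was left out. Over all genes 1902 passed, with 702 without control replicate A, 1255 without control replicate B and 0 in the unmoderated test. The share of calls that were higher was 47.2% as reported and 23.6% with median centring. The causes were not tested. A replicate block on the letters A and B gave 17 genes in the 3 lists, 7 opioid genes and 3824 genes in all. The arrays share only a letter, and the deviations of the A arrays from their group means correlated at 0.242 across 14520 genes. Oprl1 passed with this block (adjusted p = 0.00785). All alternatives planned were run; the upper 40% filter left Pdyn and Oprd1 untested. Dim signals limit Pdyn, whose control level lay within background.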
